A study of Mus musculus with 12 samples.

Results

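The genes described here carry the signal of insulin and insulin-like growth factors from the cell surface to the kinase AKT. The set holds 10 genes picked by name from the gene column of the deposited tables: the receptors Insr and Igf1r, the adaptors Irs1, Irs2 and Grb10, the PI3-kinase subunits Pik3ca and Pik3r1, and the kinases Pdpk1, Akt1 and Akt2. All 10 were found among the 49315 genes of the count files. All 10 were also among the 16844 genes that passed the filter on low counts.

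Insulin binding switches on the tyrosine kinase of its receptor, which phosphorylates the insulin receptor substrate proteins. These recruit PI3-kinase, whose lipid product brings PDK1 and AKT to the membrane, where AKT is activated and goes on to restrain FoxO transcription factors and to release mTORC1. In pancreatic β-cells this route, with Irs2 at its centre, is known for sustaining β-cell mass and survival, and mTORC1 in turn is known to restrain it through IRS proteins and GRB10.

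RNA was sequenced from MIN6 cells, a mouse insulinoma line used as a β-cell model, in 12 libraries of 4 groups with 3 libraries each. The cells of every group carry the label WT and were grown in DMEM with 15% fetal bovine serum and 2 mM glutamine. The Rap group received amino acids again for 3 h together with an agent that the labels call Rap and do not spell out, the re-added group received amino acids again for 3 h, the starved group spent 16 h in the absence of amino acids, and the control group had none of these treatments. The labels do not say how long cells of the Rap and re-added groups had been without amino acids, nor whether libraries within a group derive from independent cultures. P-values therefore speak of the spread among the sequenced libraries only, which could be technical. The series title names amino acids, mTORC1 and PDX1 phosphorylation in β-cells, and the comparisons ask which transcripts change when amino acids are withdrawn, when they return, and when they return with Rap.

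Totals ran from 18555958 to 25631056 counted reads a library. All 12 β-cell markers looked up, such as Ins1 and Pdx1, were detected in each group. Markers of fibroblasts, leukocytes and endothelium were detected too, with 0 of the 27 at 0 in every library of a group. Their summed level ran from 119 to 126 CPM (a gene's reads scaled so that library totals are equal) in Rap libraries, from 122 to 722 CPM in re-added libraries, from 130.0 to 1754 CPM in starved libraries and from 1799 to 2144 CPM in control libraries. Starved replicate 1 stood near the control libraries, starved replicate 3 was intermediate, and starved replicate 2 was near the Rap libraries. Re-added replicate 1 was the high library of its group. The 4 lung epithelial markers looked up, Sftpc among them, moved likewise, from 34.6 to 41.4 CPM in Rap libraries, from 45.9 to 615 CPM in re-added libraries, from 70.5 to 1299 CPM in starved libraries and from 1322 to 1574 CPM in control libraries. All control libraries were high, and all Rap and re-added libraries lay below them. In the comparisons of Rap or re-added cells with control cells the treatment and these markers therefore cannot be told apart. Where these marker transcripts came from in libraries of a β-cell line was not tested. In bulk RNA, fewer cells of a type and less RNA per cell cannot be told apart.

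Levels below are CPM with TMM-scaled library sizes, as mean ± SD with n = 3 where averaged. Changes are log2 fold changes with their standard error (SE), and a gene is called changed at a Benjamini-Hochberg adjusted p under 0.05 over all 16844 genes in the quasi-likelihood test of edgeR. Of the 10 genes, 9 differed among the 4 groups in the F test of that fit, against 71.9% of all genes. The exception was Pdpk1 (adjusted p = 0.0599, edgeR). With the sum of the other-cell markers as a covariate, Grb10 (adjusted p = 0.89, edgeR) and Pik3r1 (adjusted p = 0.0584, edgeR) were not called. Pdpk1 was called in 7 alternatives, that one included (adjusted p = 0.0188, edgeR). Grb10 was also not called by limma on log2(TPM + 1) without a filter (adjusted p = 0.0639).

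**Figure D1:**
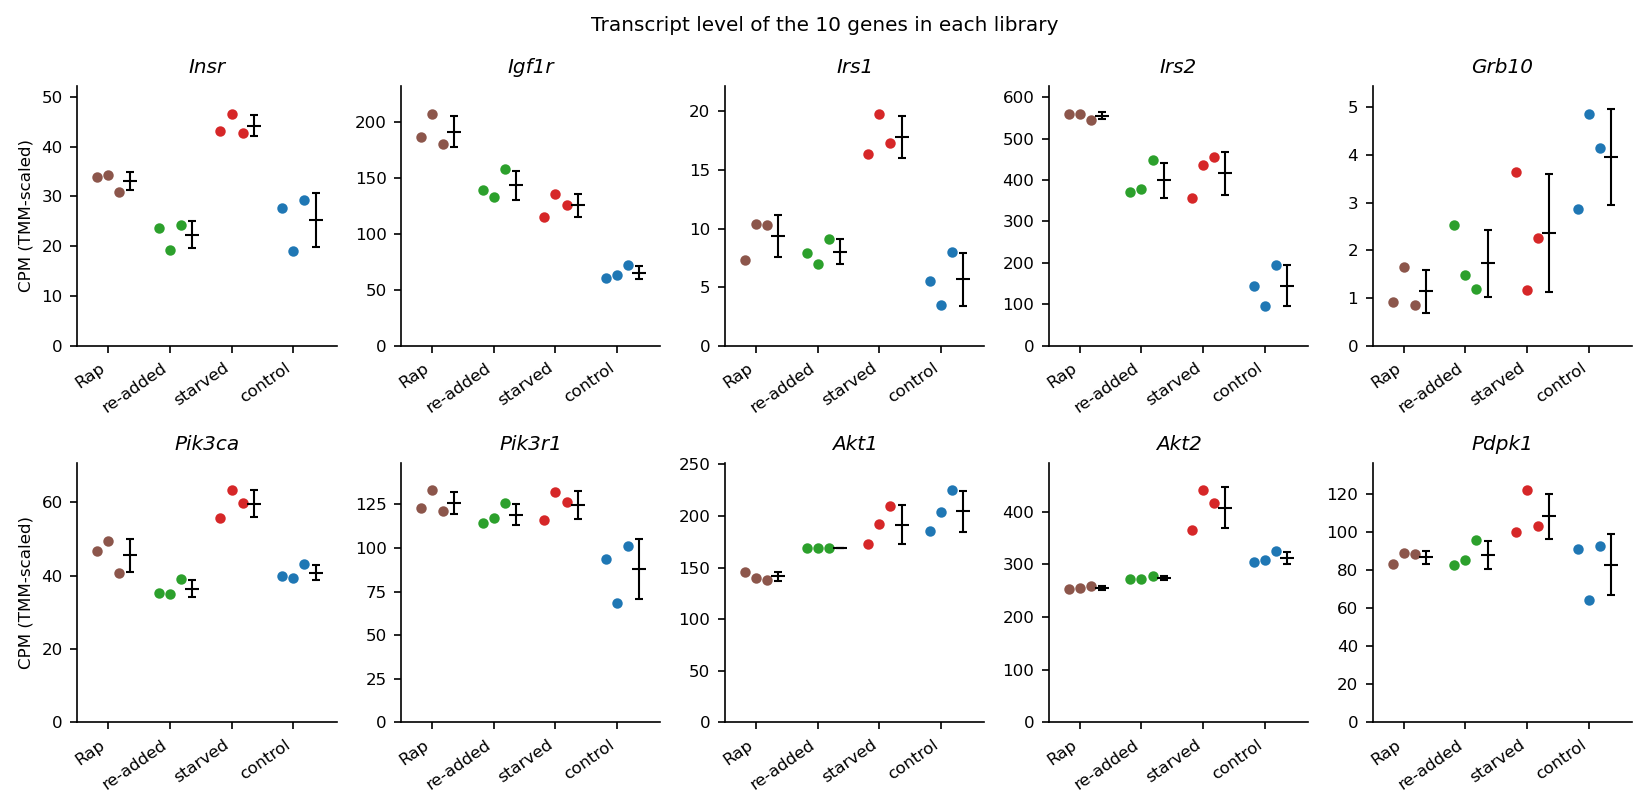
Level of each of the 10 genes in every library (points) by group, in CPM with TMM-scaled library sizes, on linear axes that start at 0; the bar beside the points is the mean with 1 SD of 3 libraries. Irs1, Irs2 and Igf1r stood higher in all 3 starved libraries than in all 3 control libraries, and Insr, Irs1, Pik3ca and Akt2 stood lower in all 3 re-added libraries than in all 3 starved libraries.

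Without amino acids, transcripts along most of the route were more abundant. In starved against control cells 8 of the 10 genes were called higher and 0 lower, where 24.3% of all genes were called higher and 38.9% in either direction. No member was lower at an unadjusted p under 0.05 in edgeR (0 of 10) or by DESeq2 (0 of 10). The median change of the 10 genes was 0.53 on the log2 scale, and that of all genes 0.01. Irs1 (log2 fold change 1.65) and Irs2 (1.52) were the 2 members called with at least a 2-fold change, which 5.72% of all genes reached. Of the genes called, 62.5% were higher, against 44.6% with upper-quartile scaling, which moved the median of all genes to -0.13 and left 7 of the members called higher and Akt1 called lower (-0.24). The starved and control libraries did not overlap for 8 members, and that held for 50.1% of all genes. Of the 8 calls, that of Pdpk1 was made in 13 of 24 alternatives and the others in at least 22. All control libraries were above all starved libraries in the markers of other cells. With starved replicate 1, the nearest to them, alone set against the control libraries, the estimates for Pik3r1, Akt2 and Pdpk1 were 0.42, 0.25 and 0.29. They were 0.51, 0.39 and 0.39 in the main fit. A lone starved library has no spread of its own, so these estimates cannot decide whether the rises hold at a like marker level.

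When amino acids returned for 3 h, part of the 10 genes was called lower and none higher. In re-added against starved cells 0 were called higher and 4 lower (Insr, Irs1, Pik3ca and Akt2), where 18.4% of all genes were called higher, 18.8% lower and 37.3% in either direction. The groups did not overlap for 6 members, as for 50.6% of all genes. Irs1 was the member called with at least a 2-fold change, which 7.82% of all genes reached. At an unadjusted p under 0.05 edgeR had 0 of 10 higher, as did DESeq2 after adjustment. The median log2 change of the 10 genes was -0.38, against -0.06 for all genes. Igf1r, Irs2 and Pik3r1 were not called here and remained above their control level. This comparison and that of starved with control cells share the starved libraries, so a high starved value moves both.

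With Rap beside the amino acids, 3 of the 10 genes (Insr, Igf1r and Pik3ca) were called higher than with amino acids alone and 0 lower. Of all genes, 4.55% were called higher, 3.43% lower and 7.98% in either direction. None of the 10 genes was called with a 2-fold change, which 0.635% of all genes reached. At an unadjusted p under 0.05 edgeR had 4 higher and 1 lower, and DESeq2 after adjustment 3 higher and 1 lower, Akt1. The median log2 change was 0.15, against 0.00 for all genes. Of the genes called, 57.0% were higher, against 29.2% with limma on log2(TPM + 1), where Akt1 was called lower (-0.36, adjusted p = 0.0233) and no other member was called. By that fit the adjusted p was 0.172 for Insr, 0.0993 for Igf1r and 0.297 for Pik3ca (limma). The Rap and re-added libraries did not overlap for 6 members, as for 38.9% of all genes. The count of calls rests on single libraries: 0 of the 10 genes were called without re-added replicate 1, re-added replicate 2, Rap replicate 1 or Rap replicate 2, and 1 without re-added replicate 3.

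**Figure D2:**
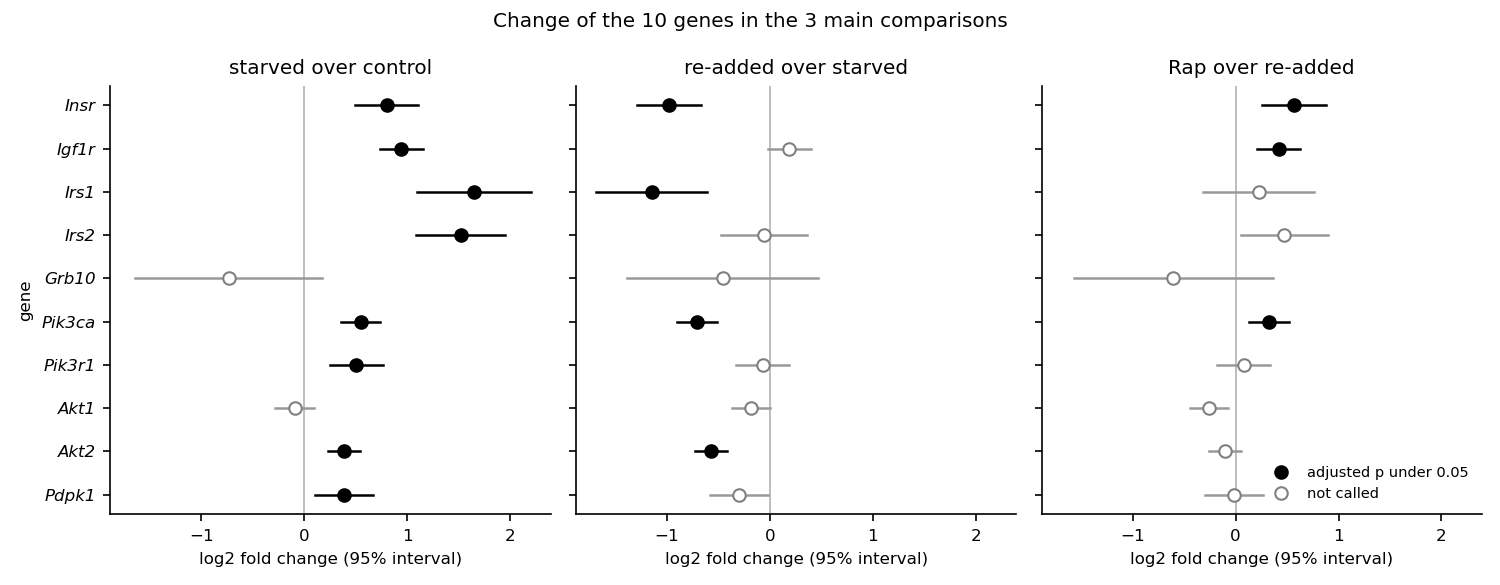
Log2 fold change of the 10 genes (points) with its 95% interval (lines) in the 3 main comparisons, starved over control, re-added over starved and Rap over re-added; filled points have an adjusted p under 0.05 in edgeR's quasi-likelihood test. Of the 10 genes, 8 lie above 0 with a filled point in the first panel, 4 below 0 in the second and 3 above 0 in the third.

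Insr (chromosome 8, 3122061 to 3279617, minus strand, GRCm38.p6) encodes the insulin receptor. Its levels were 34.0, 34.3 and 31.0 CPM in Rap libraries, 23.6, 19.2 and 24.2 CPM in re-added libraries, 43.2, 46.6 and 42.7 CPM in starved libraries, and 27.6, 19.1 and 29.2 CPM in control libraries. All starved libraries were above all others, the Rap libraries came next without overlapping any other group, and the re-added and control libraries overlapped, with control replicate 2 the lowest control. Insr was higher in starved than in control cells (log2 fold change 0.80, SE 0.14, adjusted p = 0.000984, edgeR). It was lower in re-added than in starved cells (-0.98, SE 0.14, adjusted p = 0.000226, edgeR), and re-added and control cells did not differ beyond their spread (-0.18, 95% interval -0.50 to 0.13), but were called without control replicate 2 (-0.35, adjusted p = 0.0216, edgeR). With Rap it was higher than with amino acids alone (0.57, SE 0.14, adjusted p = 0.0314, edgeR) and lower than in starved cells (-0.42, SE 0.14, adjusted p = 0.0318, edgeR). The call against re-added cells was lost without any one of the 3 Rap or the 3 re-added libraries or starved replicate 3, with the estimate between 0.47 and 0.63. It was also lost by limma on log2(TPM + 1) (0.40, adjusted p = 0.172) and in libraries of like marker level (0.59, adjusted p = 0.0541, edgeR), and was made in 13 of 24 alternatives.

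Igf1r (chromosome 7, 67952827 to 68233668, plus strand) encodes the receptor for insulin-like growth factor 1, the close relative of the insulin receptor. It stood at 187, 207 and 181 CPM in Rap libraries, 139.6, 133 and 158 CPM in re-added libraries, 115, 136 and 126 CPM in starved libraries, and 60.8, 63.4 and 72.1 CPM in control libraries. The Rap libraries were above all others and the control libraries below all others, while re-added and starved libraries overlapped. The order was therefore Rap, re-added, starved and control, and the neighbours re-added and starved did not differ beyond their spread (0.19, SE 0.09, adjusted p = 0.136, edgeR). Igf1r was higher in starved than in control cells (0.94, SE 0.10, adjusted p = 2.52e-05, edgeR), and the call held in all 24 alternative analyses. It was also higher in re-added than in control cells (1.13, SE 0.10, adjusted p = 8.92e-06, edgeR). The difference between Rap and re-added cells (0.42, SE 0.09, adjusted p = 0.0186, edgeR) was lost without re-added replicate 1 or 2 or Rap replicate 1 or 2 (0.36 to 0.44). It was also lost by limma on log2(TPM + 1) (0.30, adjusted p = 0.0993) and in libraries of like marker level (0.38, adjusted p = 0.0651, edgeR), and was called in 16 of 24 alternatives.

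Per length, on the deposited TPM scale, Insr was the scarcer receptor throughout. The ratio of Insr to Igf1r TPM was 0.211 ± 0.0105 in Rap cells, 0.190 ± 0.0154 in re-added cells, 0.430 ± 0.0241 in starved cells and 0.472 ± 0.0957 in control cells (SD, n = 3). The 6 ratios of Rap and re-added libraries ran from 0.176 to 0.223, below all starved and control ratios, which ran from 0.368 to 0.555. A ratio within a library cannot be moved by scaling between libraries. The ratios given here and below are descriptions, with no test.

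Irs1 and Irs2 encode the adaptor proteins that dock on both receptors and carry PI3-kinase to them. Irs1 lies on chromosome 1 (82233101 to 82291416, minus strand) and Irs2 on chromosome 8 (10984681 to 11008458, minus strand). The promoters of both are printed because the pair showed the largest rises of the 10 genes in starved cells. The sequences run from 250 bases before to 50 bases after the start site in RefSeq (GRCm38.p6), chr1:82291390-82291689 and chr8:11008880-11009179, each on the minus strand and written 5′ to 3′. Capitals mark the E-box CACGTG, an element that MYC and MiT/TFE factors bind.
Irs1 promoter: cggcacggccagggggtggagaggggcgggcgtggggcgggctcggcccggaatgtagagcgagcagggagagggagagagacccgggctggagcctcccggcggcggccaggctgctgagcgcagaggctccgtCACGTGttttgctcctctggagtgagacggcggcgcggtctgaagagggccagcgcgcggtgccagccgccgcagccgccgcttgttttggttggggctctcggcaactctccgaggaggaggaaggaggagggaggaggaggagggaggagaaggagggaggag
Irs2 promoter: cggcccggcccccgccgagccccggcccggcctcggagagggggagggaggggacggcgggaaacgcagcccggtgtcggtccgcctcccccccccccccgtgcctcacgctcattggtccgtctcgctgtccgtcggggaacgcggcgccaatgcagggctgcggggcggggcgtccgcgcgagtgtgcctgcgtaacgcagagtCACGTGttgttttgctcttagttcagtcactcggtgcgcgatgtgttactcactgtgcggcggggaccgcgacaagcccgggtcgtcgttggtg

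The E-box started at position -115 in the Irs1 promoter and at position -44 in the Irs2 promoter, counted from the start site. Those start sites are RefSeq's, and lay 23 bases upstream of the 5′ end that the count files give for Irs1 and 471 bases upstream of that for Irs2. CACGTG was present in 7.15% of the 32851 promoters of the table. Promoters were found for 9 of the 10 genes, 16 promoters in all, and were searched on both strands for the E-box and for 3 further motifs. These were the FoxO element GTAAACA, which 3.65% of all promoters held, the C/EBP-ATF element TGATGNAA, which 3.97% held, and the cAMP response element TGACGTCA, which 1.79% held. No match overlapped another. Among the 16 promoters the E-box was met only in those of Irs1 and Irs2. The promoters of Igf1r, Pik3ca, Pik3r1, Grb10 and Pdpk1 held no match to any of these motifs. GTAAACA was met in the Akt1 promoter whose start site is the 5′ end in the count files, on the strand opposite the gene at -161. Another Akt1 promoter held no match. TGATGNAA was met in an Akt2 promoter, also on the opposite strand, at -85. The start site of that promoter, 27605797, lay downstream of the 5′ end that the count files give for Akt2, 27591552. The other Akt2 promoters held no match, that at this 5′ end included. Bases G and C made up 71.3% of the Irs1 promoter and 72.0% of the Irs2 promoter, against a median of 52.7% over all promoters. These matches describe letters in the sequence, not binding.

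Irs1 was scarce, with 64 to 422 reads a library. Its levels were 7.32, 10.4 and 10.3 CPM in Rap libraries, 7.93, 7.0 and 9.12 CPM in re-added libraries, 16.4, 19.8 and 17.3 CPM in starved libraries, and 5.53, 3.461 and 7.998 CPM in control libraries. Every starved library was above every other library, and the remaining groups overlapped one another. Irs1 was higher in starved than in control cells (1.65, SE 0.25, adjusted p = 0.000378, edgeR) and lower in re-added than in starved cells (-1.15, SE 0.25, adjusted p = 0.0033, edgeR), and both calls held in all 24 alternatives. In the order starved, Rap, re-added and control, the neighbours Rap and re-added (0.22, 95% interval -0.32 to 0.76) and re-added and control (0.50, 95% interval -0.05 to 1.05) did not differ beyond their spread. Rap and starved cells did (-0.93, SE 0.25, adjusted p = 0.0113, edgeR), though not without Rap replicate 1 (-0.78, adjusted p = 0.0519, edgeR). This call was made in 22 of 24 alternatives. When starved replicate 2 alone was set against the Rap libraries, the libraries of like marker level, the estimate was -1.04. Re-added and control cells were called without control replicate 3 (0.83, adjusted p = 0.0149, edgeR). Of the exon bases of Irs1, 30.9% are shared with Gm9747 on the opposite strand, which averaged 0.0 CPM, and of those of Irs2 2.56% are shared with 9530052E02Rik on the opposite strand, which averaged 0.05 CPM.

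Irs2 had the highest TPM of the 10 genes in the Rap, re-added and starved groups, with 233 ± 10.2 TPM in Rap cells, 179.9 ± 21.8 TPM in re-added cells, 189.8 ± 14.8 TPM in starved cells and 62.0 ± 24.7 TPM in control cells (SD, n = 3). In CPM it stood at 559.7, 559.3 and 545 in Rap libraries, 370.5, 378 and 448 in re-added libraries, 357, 435 and 456 in starved libraries, and 144, 96.4 and 195 in control libraries. The control libraries were below all others, the Rap libraries were above all others, and re-added and starved libraries overlapped. Irs2 was higher in starved than in control cells (1.52, SE 0.20, adjusted p = 0.00013, edgeR) and stayed so after re-addition (re-added against control 1.46, SE 0.20, adjusted p = 0.000199, edgeR). The change from re-addition itself was small (-0.06, 95% interval -0.48 to 0.36, adjusted p = 0.826). The higher level with Rap was not called against re-added cells (0.48, SE 0.19, adjusted p = 0.168) or against starved cells (0.41, SE 0.19, adjusted p = 0.0989, edgeR). The first was called in 2 and the second in 4 of 24 alternatives. Both were called without control replicate 2 (0.47, adjusted p = 0.0287, and 0.41, adjusted p = 0.0179, edgeR). Both were also called in the 6 libraries alone (0.45, adjusted p = 0.00096, and 0.41, adjusted p = 0.00202, edgeR). The second was called too without control replicate 3 (0.41, adjusted p = 0.035, edgeR) and with upper-quartile scaling (0.47, adjusted p = 0.045, edgeR).

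The balance between both adaptors differed between the groups. The ratio of Irs2 to Irs1 TPM was 88.1 ± 19.5 in Rap cells, 72.2 ± 5.33 in re-added cells, 33.8 ± 3.71 in starved cells and 37.7 ± 2.53 in control cells (SD, n = 3). Ratios ran from 67.6 to 110.6 in the 6 Rap and re-added libraries, and from 31.5 to 40.3 in the 6 starved and control libraries, with no overlap. Rap replicate 1 gave the highest ratio.

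**Figure D3:**
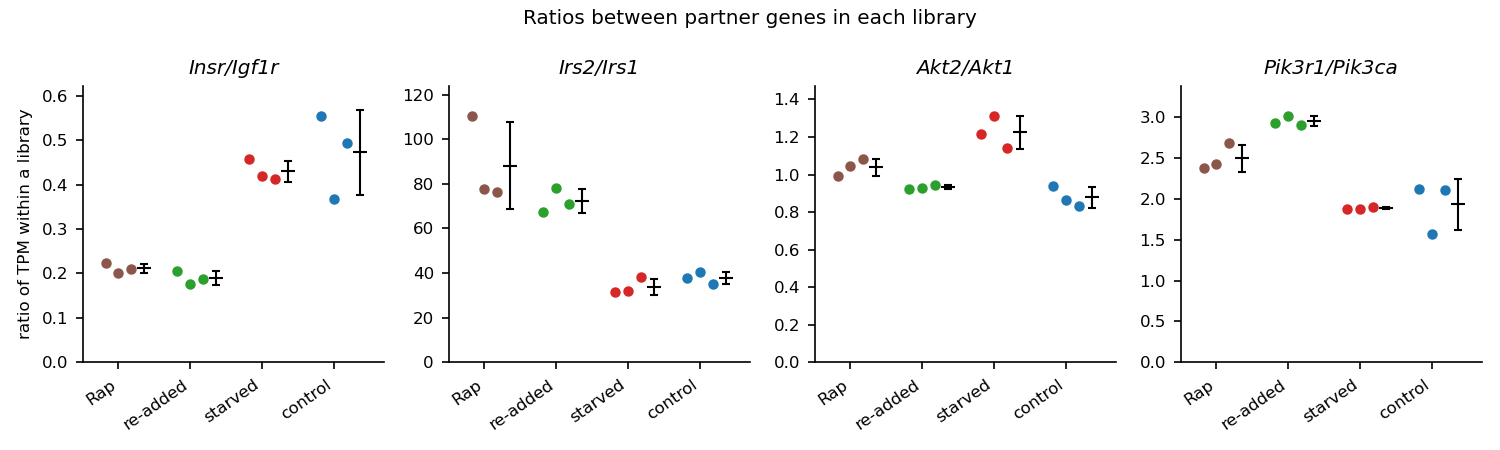
Ratio of deposited TPM between partner genes within each library (points) by group, with mean and 1 SD of 3 libraries (bar) and axes that start at 0. In Rap and re-added libraries the Insr to Igf1r ratio is at most 0.223 and the Irs2 to Irs1 ratio at least 67.6, and in starved and control libraries they are at least 0.368 and at most 40.3.

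Grb10 (chromosome 11, 11930508 to 12038683, minus strand) encodes an adaptor that binds and restrains both receptors and is stabilised by mTORC1. It was the scarcest member, with 17 to 94 reads a library. Its levels were 0.92, 1.66 and 0.85 CPM in Rap libraries, 2.53, 1.48 and 1.19 CPM in re-added libraries, 3.65, 1.18 and 2.27 CPM in starved libraries, and 2.88, 4.87 and 4.14 CPM in control libraries. The high re-added library (replicate 1) and the high and low starved libraries (replicates 1 and 2) were also the high and low libraries for the markers of other cells. Grb10 was lower in Rap than in control cells (-1.79, SE 0.44, adjusted p = 0.00535, edgeR) and in re-added than in control cells (-1.19, SE 0.42, adjusted p = 0.036, edgeR), while no pair of neighbours in the order control, starved, re-added and Rap was called. Starved and control cells were called without starved replicate 1 (-1.23, adjusted p = 0.0445, edgeR), and Rap and starved cells without starved replicate 2 (-1.43, adjusted p = 0.0148, edgeR). With the marker sum as a covariate the Rap difference was -0.12 (adjusted p = 0.898, edgeR) and the re-added one 0.06 (adjusted p = 0.94, edgeR). The call between re-added and control cells was also lost without control replicate 2 or 3, starved replicate 3, or re-added replicate 2 or 3 (-1.201 to -0.98).

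**Figure D4:**
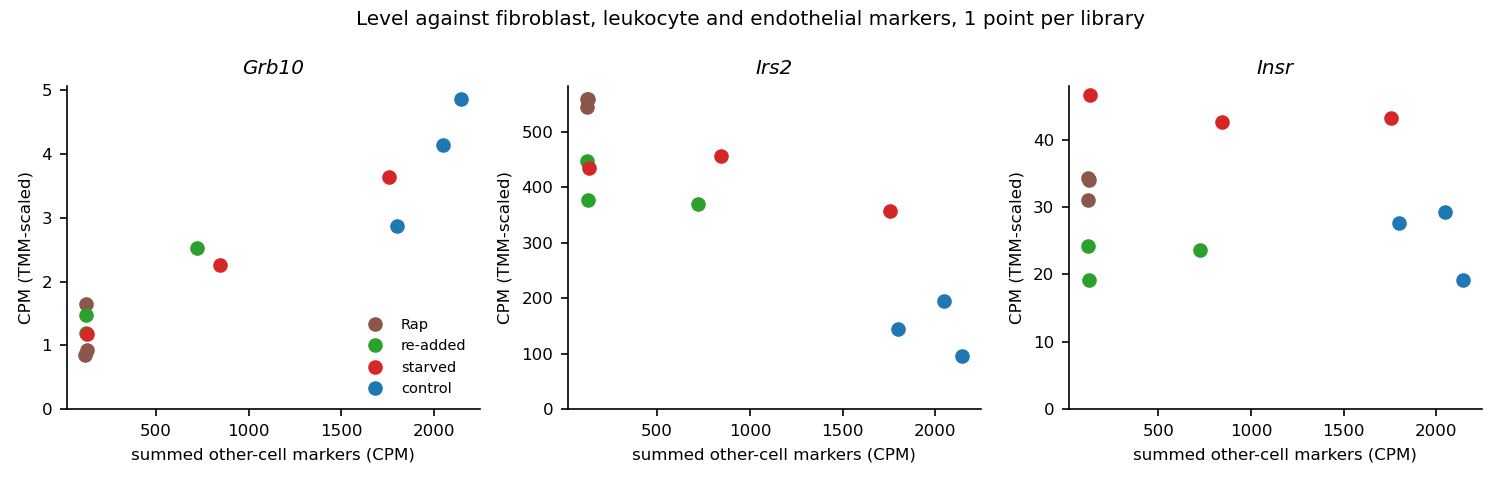
Level of Grb10, Irs2 and Insr (CPM, TMM-scaled, axes from 0) against the summed level of 27 fibroblast, leukocyte and endothelial markers (CPM of raw totals), 1 point per library, coloured by group. Grb10 is at 3.65 CPM in the starved library with 1754 CPM of markers and at 1.18 CPM in the one with 130.0 CPM, while Insr is between 42.7 and 46.6 CPM in all 3 starved libraries.

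Pik3ca (chromosome 3, 32397671 to 32468486, plus strand) encodes the catalytic subunit p110α of PI3-kinase. It stood at 46.7, 49.5 and 40.7 CPM in Rap libraries, 35.3, 34.97 and 39.1 CPM in re-added libraries, 55.8, 63.3 and 59.96 CPM in starved libraries, and 39.8, 39.4 and 43.3 CPM in control libraries. The starved libraries were above all others and the re-added libraries below all others. Pik3ca was higher in starved than in control cells (0.55, SE 0.09, adjusted p = 0.000541, edgeR) and lower in re-added than in starved cells (-0.71, SE 0.09, adjusted p = 7.57e-05, edgeR), in all 24 alternatives each. The difference between Rap and re-added cells was close to the threshold (0.32, SE 0.09, adjusted p = 0.0455, edgeR) and was called in 8 of 24 alternatives. It was lost without control replicate 1, without any one starved or re-added library, and without Rap replicate 1 or 2 (0.26 to 0.38). Neither Rap (0.16, 95% interval -0.03 to 0.35) nor re-added cells (-0.16, 95% interval -0.36 to 0.03) differed from control cells beyond the spread, though Rap cells did without Rap replicate 3 (0.24, adjusted p = 0.0488, edgeR).

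Pik3r1 (chromosome 13, 101680563 to 101768217, minus strand) encodes p85α, the regulatory subunit that binds the phosphorylated adaptors. Its levels were 123, 133 and 121 CPM in Rap libraries, 114, 117 and 126 CPM in re-added libraries, 116, 132 and 127 CPM in starved libraries, and 93.9, 68.6 and 101 CPM in control libraries. All control libraries were below all others, and the other groups overlapped. Pik3r1 was higher in starved than in control cells (0.51, SE 0.12, adjusted p = 0.00538, edgeR), higher in re-added than in control cells (0.44, SE 0.12, adjusted p = 0.0116, edgeR) and higher in Rap than in control cells (0.52, SE 0.12, adjusted p = 0.00378, edgeR). The second was 0.29 without control replicate 2 (adjusted p = 0.013, edgeR). With the marker sum as a covariate the second was 0.30 (adjusted p = 0.236, edgeR) and the third 0.34 (adjusted p = 0.27, edgeR). In the 6 libraries of each comparison alone, neither the first (0.47, adjusted p = 0.0577, edgeR) nor the second (0.42, adjusted p = 0.0508, edgeR) was called. When starved replicate 1 alone was set against the control libraries the first was 0.42. The ratio of Pik3r1 to Pik3ca TPM was 2.50 ± 0.167 in Rap cells, 2.95 ± 0.0620 in re-added cells, 1.89 ± 0.0136 in starved cells and 1.93 ± 0.316 in control cells (SD, n = 3).

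Pdpk1 (chromosome 17, 24073680 to 24150924, minus strand) encodes PDK1, which phosphorylates AKT at the membrane. It stood at 82.9, 88.9 and 88.6 CPM in Rap libraries, 82.4, 85.3 and 96.0 CPM in re-added libraries, 99.8, 122 and 103 CPM in starved libraries, and 91.3, 64.2 and 92.7 CPM in control libraries. The starved libraries were above all others, and the other groups overlapped around the low control replicate 2. Pdpk1 was called higher in starved than in control cells (0.39, SE 0.13, adjusted p = 0.0323, edgeR). The call was lost without control replicate 2 (0.24), without starved replicate 1, 2 or 3, or without re-added replicate 1 (0.29 to 0.37), and was made in 13 of 24 alternatives. With the marker sum as a covariate it was lost too (0.25, adjusted p = 0.165, edgeR). Pdpk1 was not called in the other 5 comparisons. Without control replicate 2 it was lower than in starved cells both in re-added cells (-0.30, adjusted p = 0.0128, edgeR) and in Rap cells (-0.32, adjusted p = 0.00969, edgeR). Re-added against starved was called in 3 and Rap against starved in 7 of 24 alternatives. Both were also called in the 6 libraries alone (-0.27, adjusted p = 0.0322, and -0.33, adjusted p = 0.00272, edgeR). The marker covariate gave both calls as well (-0.40, adjusted p = 0.0175, and -0.48, adjusted p = 0.0166, edgeR).

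Akt1 and Akt2 encode the kinases at the end of the route. Akt2, the form known for its part in insulin action, lies on chromosome 7 (27591552 to 27640826, plus strand). It stood at 252, 254 and 259 CPM in Rap libraries, 271, 273 and 278 CPM in re-added libraries, 366, 440.2 and 417 CPM in starved libraries, and 303, 307 and 325 CPM in control libraries. The 4 groups did not overlap, in the order starved, control, re-added and Rap. Akt2 was higher in starved than in control cells (0.39, SE 0.07, adjusted p = 0.00136, edgeR) and lower in re-added than in starved cells (-0.57, SE 0.07, adjusted p = 8.1e-05, edgeR). When starved replicate 1 alone was set against the control libraries the first was 0.25 (adjusted p = 0.0571, edgeR). The difference between Rap and re-added cells was -0.10 (95% interval -0.26 to 0.06). Re-added cells were just below control cells (-0.19, SE 0.07, adjusted p = 0.0476, edgeR), a call lost without any one control or Rap library or re-added replicate 2 or 3 (-0.21 to -0.15). That call was made in 9 of 23 alternatives, and was also lost with the marker sum as a covariate (-0.32, adjusted p = 0.0587, edgeR), with no filter on counts (-0.20, adjusted p = 0.0612, edgeR) and by limma on log2(TPM + 1) (-0.09, adjusted p = 0.279).

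Akt1 (chromosome 12, 112653821 to 112674884, minus strand), the form known for growth and survival, was not called higher in starved cells. It stood at 146, 140.1 and 138 CPM in Rap libraries, 169, 169 and 169 CPM in re-added libraries, 173, 193 and 210.1 CPM in starved libraries, and 185, 204 and 225 CPM in control libraries. Starved and control libraries overlapped (-0.09, 95% interval -0.28 to 0.09), and all Rap libraries were below all others. Akt1 was lower in Rap than in control cells (-0.53, SE 0.09, adjusted p = 0.000538, edgeR) and than in starved cells (-0.44, SE 0.09, adjusted p = 0.00205, edgeR). Against re-added cells the difference was not called (-0.26, SE 0.09, adjusted p = 0.095, edgeR). It was called in 9 of 24 alternatives. These were the fits without starved replicate 1 (adjusted p = 0.0452, edgeR) or 3 (adjusted p = 0.0263, edgeR), upper-quartile scaling (adjusted p = 0.0432, edgeR), a stricter filter (adjusted p = 0.0361, edgeR), the 6 libraries alone (adjusted p = 0.000827, edgeR), DESeq2 (adjusted p = 0.01) and the 3 limma fits (adjusted p = 0.0233 to 0.0477). Akt1 was also lower in re-added than in control cells (-0.28, SE 0.09, adjusted p = 0.0206, edgeR), though not without control replicate 3 or re-added replicate 2 or 3 (-0.27 to -0.20), with the marker sum as a covariate (-0.31, adjusted p = 0.127, edgeR) or by limma on log2(TPM + 1) (-0.17, adjusted p = 0.126). The ratio of Akt2 to Akt1 TPM was 1.04 ± 0.0457 in Rap cells, 0.932 ± 0.0102 in re-added cells, 1.22 ± 0.0870 in starved cells and 0.879 ± 0.0561 in control cells (SD, n = 3).

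Set directly against starved cells, Rap cells had 1 member higher (Igf1r) and 5 lower (Insr, Irs1, Pik3ca, Akt1 and Akt2), where 20.2% of all genes were called higher, 23.9% lower and 44.1% in either direction. These groups did not overlap for 8 members, as for 53.1% of all genes, and 0 members were called with a 2-fold change, as 14.0% of all genes were. Set against control cells, re-added cells had 3 members higher (Igf1r, Irs2 and Pik3r1) and 3 lower (Grb10, Akt1 and Akt2), where 24.8% of all genes were called higher, 24.5% lower and 49.3% in either direction. The groups did not overlap for 7 members, as for 59.5% of all genes, and Igf1r, Irs2 and Grb10 passed a 2-fold change, as 16.2% of all genes did. Without re-added replicate 2, or without re-added replicate 3, 3 of these 6 calls remained. Rap cells had 5 members higher than control cells (Insr, Igf1r, Irs1, Irs2 and Pik3r1) and 3 lower (Grb10, Akt1 and Akt2), where 27.7% of all genes were called higher, 25.3% lower and 53.0% in either direction. Here too 7 members did not overlap, as for 61.0% of all genes, and the same 3 members passed a 2-fold change, as 19.7% of all genes did. The largest of these rises was that of Irs2 in Rap cells (1.93, SE 0.20, adjusted p = 2.67e-05, edgeR), followed by Igf1r (1.55, SE 0.10, adjusted p = 7.95e-07, edgeR). The lower Insr in Rap than in starved cells was lost without any one starved or Rap library (-0.44 to -0.37), and was called in 14 of 24 alternatives. Its higher level than in control cells was lost without control replicate 2 (0.22), any one starved or Rap library, or re-added replicate 1 (0.33 to 0.43). That call was made in 5 of 23 alternatives and was also lost with upper-quartile or RLE scaling, DESeq2, no filter or a stricter one, the 6 libraries alone or limma, with estimates of 0.30 to 0.40, and with the marker sum as a covariate (0.35, adjusted p = 0.362, edgeR). The higher Irs1 in Rap than in control cells was lost without control replicate 1 or 2, starved replicate 3, or Rap replicate 2 or 3 (0.47 to 0.70), and was called in 16 of 23 alternatives. That call was also lost with the marker sum as a covariate (0.49, adjusted p = 0.402, edgeR). Limma on log2(TPM + 1) without a filter did not make it either (0.50, adjusted p = 0.107). These comparisons share libraries with those above.

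Around the 10 genes, 74 further genes of the pathway were listed by role, of which 71 passed the filter. Igfbp1, Irs3 and Irs4 did not. In starved against control cells 30 were called higher and 9 lower, with a median of 0.15, where 24.3% of all genes were called higher and 14.6% lower. In re-added against starved cells 8 were higher and 28 lower, with a median of -0.43, where 18.4% of all genes were higher and 18.8% lower. In Rap against re-added cells 6 were higher and 1 lower, with a median of -0.06. These 7 of 71 genes are 9.86%, near the 7.98% of all genes called there. Those 7 calls became 4 without re-added replicate 2, re-added replicate 3 or Rap replicate 2, and 11 without control replicate 2. Genes named below were the called ones with the largest changes and a level of 5 CPM or more, apart from those said to be named after their values were seen.

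**Figure D5:**
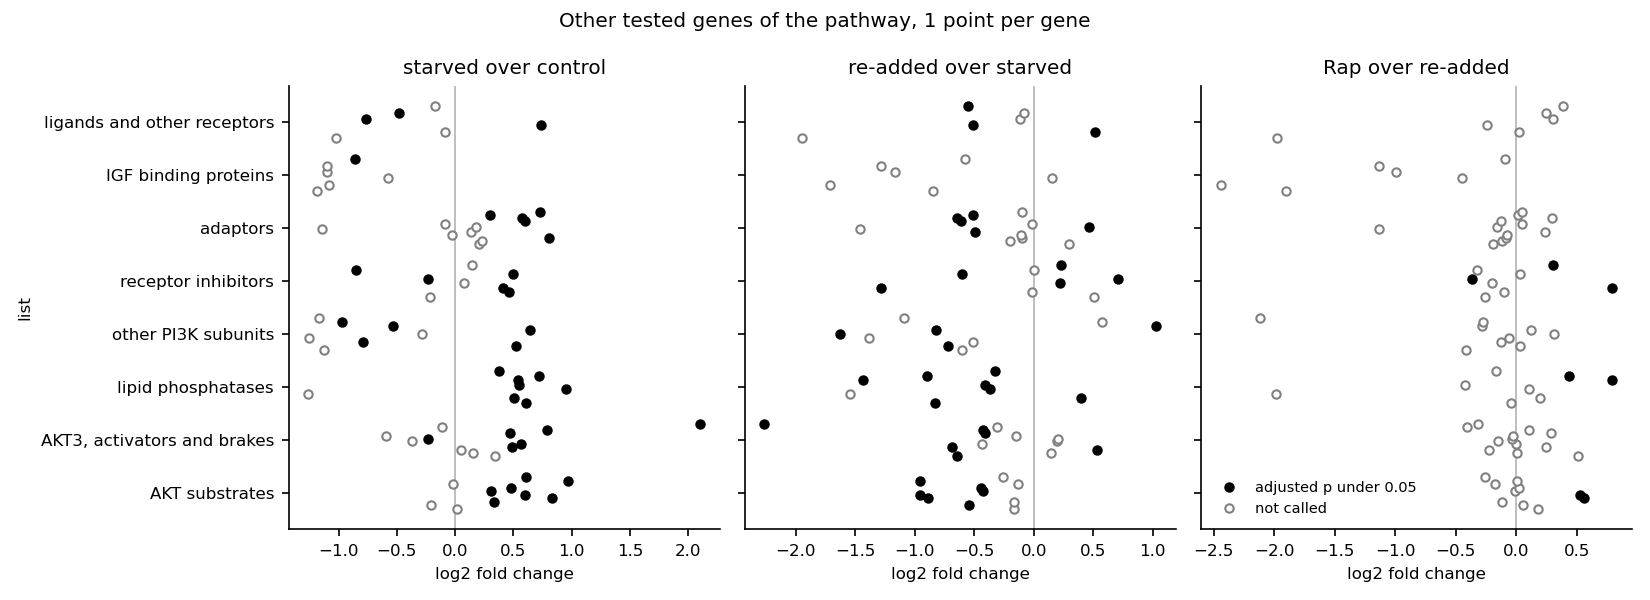
Log2 fold change of the 71 other tested genes of the pathway (1 point per gene) by list in the 3 main comparisons, starved over control, re-added over starved and Rap over re-added; filled points have an adjusted p under 0.05 in edgeR's quasi-likelihood test. The lipid phosphatases hold 7 filled points of 8 on the right in the first panel and 6 on the left in the second, and the right-most filled point of the first panel and the left-most of the second is Trib3 (2.1 and -2.26).

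Trib3, a pseudokinase that binds AKT and restrains it, showed the largest called changes among listed genes of 5 CPM or more in starved against control cells and in re-added against starved cells. It stood at 9.16, 8.77 and 10.4 CPM in Rap libraries, 10.9, 11.96 and 12.5 CPM in re-added libraries, 48.9, 66.5 and 54.7 CPM in starved libraries, and 11.9, 16.9 and 10.8 CPM in control libraries. All starved libraries were at least 2-fold above every other library. It was higher in starved than in control cells (2.1, SE 0.16, adjusted p = 3.48e-06, edgeR), lower in re-added than in starved cells (-2.26, SE 0.17, adjusted p = 1.54e-06, edgeR), and not called between Rap and re-added cells (-0.32, 95% interval -0.68 to 0.05).

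The 8 lipid phosphatases act on the product of PI3-kinase or on lipids derived from it. Of these genes, 7 were higher in starved than in control cells, and 6 were lower and 1 higher in re-added than in starved cells. Of all genes, 24.3% were higher in the first comparison, and 18.8% were lower and 18.4% higher in the second. The one not called in starved cells was Inpp5d, known from blood cells, and the one higher on re-addition was Inpp4b (0.39), both named after their values were seen. Inpp5e was higher in starved cells (0.95, SE 0.11, adjusted p = 5.49e-05, edgeR). Inpp5k stood at 24.3, 23.1 and 25.6 CPM in Rap libraries, 14.4, 14.4 and 13.4 CPM in re-added libraries, 39.4, 37.9 and 37.1 CPM in starved libraries, and 27.1, 24.8 and 26.5 CPM in control libraries. The re-added libraries were the lowest and the starved libraries the highest. It was lower in re-added than in starved cells (-1.44, SE 0.08, adjusted p = 1.5e-07, edgeR) and higher in Rap than in re-added cells (0.79, SE 0.08, adjusted p = 0.000102, edgeR), and both calls held in all 24 alternatives. Inppl1, which encodes SHIP2, was also higher in Rap than in re-added cells (0.44, SE 0.09, adjusted p = 0.0083, edgeR), though not by limma on TPM.

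Among receptor inhibitors, Grb7, an adaptor of the GRB10 family, also was lowest in re-added and highest in starved libraries. It stood at 81.9, 80.7 and 82.1 CPM in Rap libraries, 47.2, 47.6 and 46.4 CPM in re-added libraries, 104, 124 and 116 CPM in starved libraries, and 80.5, 92.0 and 85.2 CPM in control libraries. Grb7 was lower in re-added than in starved cells (-1.28, SE 0.08, adjusted p = 2.95e-07, edgeR) and higher in Rap than in re-added cells (0.79, SE 0.08, adjusted p = 8.34e-05, edgeR), in all 24 alternatives each. The phosphatase gene Ptpn2 was lower in Rap than in re-added cells (-0.37, SE 0.08, adjusted p = 0.0189, edgeR), but not without re-added replicate 2 or 3 or Rap replicate 2 or 3. Socs3, a suppressor of cytokine and insulin signalling, was higher there (0.30, adjusted p = 0.0116, edgeR) and is named after its value was seen.

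Of the 10 genes for AKT substrates, 7 were higher and 0 lower in starved than in control cells, and 0 were higher and 6 lower in re-added than in starved cells, where 24.3% of all genes were higher in the first comparison and 18.8% lower in the second. Tbc1d4, which encodes the AS160 protein of glucose transporter traffic, was higher in starved cells (0.97, SE 0.14, adjusted p = 0.000264, edgeR) and lower on re-addition (-0.96, SE 0.14, adjusted p = 0.000246, edgeR). Foxo3, a FoxO transcription factor that AKT keeps out of the nucleus, stood at 54.1, 56.8 and 49.2 CPM in Rap libraries, 33.0, 35.3 and 40.2 CPM in re-added libraries, 63.5, 69.7 and 67.5 CPM in starved libraries, and 33.8, 32.9 and 45.9 CPM in control libraries. The Rap libraries lay between the starved and the re-added libraries. Foxo3 was higher in Rap than in re-added cells (0.56, SE 0.12, adjusted p = 0.0162, edgeR), though not without re-added replicate 1 or 2 or Rap replicate 1 or 2, nor by limma on TPM. Its relative Foxo4 was lower in re-added than in starved cells (-0.96, SE 0.11, adjusted p = 3.05e-05, edgeR). Foxo4 was higher in Rap than in re-added cells (0.53, SE 0.11, adjusted p = 0.00974, edgeR), though not without re-added replicate 2 or 3 or Rap replicate 2.

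Among the other PI3-kinase subunits, Pik3r3, which encodes p55γ, was higher in re-added than in starved cells (1.03, SE 0.12, adjusted p = 5.69e-05, edgeR). Pik3r5, known from leukocytes, Socs1, a cytokine signal suppressor, and Igfbp7, a secreted binding protein, were lower in starved than in control cells (-0.97, -0.85 and -0.86, adjusted p = 0.0355, 0.0339 and 0.0116, edgeR). When starved replicate 1 alone was set against the control libraries the changes were -0.43, -0.22 and -0.46, and none of the 3 was called (adjusted p = 0.265, 0.594 and 0.242, edgeR). In starved replicates 1, 2 and 3, Pik3r5 stood at 5.58, 1.60 and 4.40 CPM, Socs1 at 6.71, 2.41 and 3.93 CPM and Igfbp7 at 56.9, 28.1 and 45.5 CPM, in the same order as the markers of other cells. With the marker sum as a covariate the changes were -0.58, -0.43 and -0.47 (adjusted p = 0.0736, 0.0854 and 0.0155, edgeR), so that Igfbp7 was still called and Pik3r5 and Socs1 were not. The call of Pik3r5 was also lost without any one control library, starved replicate 3 or Rap replicate 1, and that of Socs1 without any one control library or starved replicate 2 or 3. Without starved replicate 2 the change of Pik3r5 was -0.61 and that of Socs1 -0.56, and without starved replicate 1 that of Socs1 was -1.36.

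Among the genes with the course most like that of Insr over the 12 libraries were Clasp2 and Plekha5, with a root mean square difference of 0.102 and 0.103 in centred log2 CPM. For Irs1 the nearest were Tmem178b, Setbp1 and Ccdc57 (0.185, 0.186 and 0.189). For Irs2 they were Glis3, Map1a and Ccpg1 (0.152, 0.185 and 0.187). Only genes of at least 5 CPM were considered, and the values are given as a description.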

How the data were processed

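MIN6 RNA was sequenced as paired ends of 150 bases, per the labels' protocols. The authors deposited raw read counts per gene and library, and a table of TPM with gene names. The submitters' processing notes list Subread 2.0.1, limma 3.46.0 and the build GRCm38.p6. Not given in the sources used here are the aligner, the annotation release and the strand setting, so reads of overlapping and antisense genes cannot be told apart. The deposited TPM equal counts per exon length, rescaled, within 5e-05. They carry no depth.

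The counts were fitted with edgeR 4.0.16 under R 4.3.3 (filterByExpr, minimum count 10, minimum total 15; TMM; 1 quasi-likelihood fit of 12 libraries, 8 residual degrees of freedom; 6 contrasts). Tested genes held 99.9% of counts. Alternatives were DESeq2 1.42.0, limma 3.58.1 on log2(TPM + 1) and log2(TPM + 0.1), other scalings and filters, a replicate block, the log2 sum of 27 other-cell markers as a covariate, libraries of like marker level and leaving out each library. The routines were tested on simulated counts. The members, lists, named-gene rule, tests and alternatives were chosen with earlier results of these data known. Named genes of the wider list were, in each main comparison, the 6 called genes with the largest change and at least 5 CPM in 1 group. For Insr, Irs1 and Irs2 the 3 genes of the nearest course were taken, of which 1 is not reported here. Marker sums use raw totals.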

Additional observations from a re-analysis of the deposited data

How the results depend on the processing

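Of the calls between starved and control cells and between re-added and starved cells, those of Insr, Irs1 and Pik3ca held in all 24 alternatives of each, as did those of Igf1r and Irs2 in the first and Akt2 in the second. Leaving out 1 library at a time gave 7 to 8, 4 to 5, 0 to 4, 4 to 8, 3 to 6 and 6 to 8 members called (starved against control, re-added against starved, Rap against re-added, Rap against starved, re-added against control, Rap against control), 9 to 10 in the F test, 30 to 45, 28 to 42, 4 to 11, 29 to 46, 24 to 42, 31 to 40 and 54 to 61 wider pathway genes, and 5471 to 7158, 4756 to 7082, 635 to 2058, 4940 to 8290, 5208 to 8838, 7380 to 9212 and 11035 to 12012 of all genes. Fits of the 6 libraries alone called 22 wider pathway genes and 4199 genes in starved against control, and 6 members, 24 wider genes and 3959 genes in Rap against re-added. With libraries of like marker level, where a lone starved library was taken to be as variable as other groups, starved against control had 5 members, 20 wider genes and 3236 genes called, of which 51.0% were higher. Re-added against starved had 3559 genes called, Rap against re-added 0 members, and Rap against starved 23 wider genes and 3338 genes. The marker covariate left 2 members, 12 wider genes and 2759 genes in re-added against control, and 4, 6 and 2056 in Rap against control. DESeq2 called 11 wider genes and 2306 genes in Rap against re-added. Limma on TPM called 1 member there, Akt1 as lower, with either pseudocount and without a filter, and 3 in re-added against control with a pseudocount of 0.1 or no filter. Of the calls between Rap and re-added cells, 29.2%, 28.5% and 28.8% were higher with those settings, 45.8% with no filter on counts and 46.2% in the 6 libraries alone. Limma with a pseudocount of 0.1 gave 73.5% higher in starved against control, and its pseudocounts of 1 and 0.1 moved the median of all genes to 0.11 and 0.14 there, -0.12 and -0.14 in Rap against starved, and 0.11 and 0.13 in re-added against control. The cause of these shifts was not tested.

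Signs that turned belonged to changes near 0 or to Grb10. On the log2 scale Akt1 was 0.029 in starved against control by limma with a pseudocount of 1, with or without a filter, and 0.030 with 0.1. In re-added against starved, Irs2 was 0.0021 with upper-quartile scaling and ran from -0.15 to 0.043 with 1 library left out, and Grb10 was 0.18 with the covariate, 0.23 in libraries of like marker level and from -0.84 to 0.031 with 1 library left out. In Rap against re-added, Pik3r1 was -0.023, -0.024 and -0.023 by limma, and Pdpk1 ran from -0.083 to 0.050 with 1 library left out. In Rap against starved, Pik3r1 was -0.0081 with no filter, -0.084 with the covariate, -0.11 by limma, -0.029 in libraries of like marker level and from -0.030 to 0.039 with 1 library left out, and Grb10 was 0.005 with the covariate. In re-added against control, Grb10 was 0.057 and Pdpk1 -0.15 with the covariate, and Pdpk1 ran from -0.065 to 0.18 with 1 library left out. In Rap against control, Pdpk1 was -0.016 with upper-quartile scaling, -0.23 with the covariate and from -0.083 to 0.16 with 1 library left out.

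No label says that replicate numbers pair the libraries. Deviations of same-numbered libraries from their group means correlated from -0.33 to 0.81. Between re-added and starved libraries the values were 0.81, 0.67 and -0.33 for replicates 1, 2 and 3. Deviations within a group of 3 sum to 0, so these values cannot decide whether libraries are paired. With the replicate block the members called were 8, 4, 2, 6, 5 and 8 in the 6 comparisons above, with Pik3ca at an adjusted p of 0.0807 between Rap and re-added cells and Akt2 at 0.0536 between re-added and control cells (edgeR), and no other member's call changed. Irs1 and Grb10 rest on the fewest reads, 64 to 422 and 17 to 94 a library, and their intervals are the widest of the 10 genes.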
